A study of Mus musculus with 22 samples.

Results

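Obstructed and sham-operated mouse kidneys were compared 9 days after surgery. The comparison holds the 6 arrays labelled P9, out of 22 in the series, of which 4 carry obstructed kidney RNA (S09L, S34L, S35L and S36L) and 2 carry sham kidney RNA (S10L and S33L). All mice were C57BL/6, and no transgene or drug is named in the labels. In the obstructed group the left ureter was tied, which stops urine leaving that kidney, and in the sham group the left ureter was freed from the surrounding tissue but not tied. Total RNA was extracted with Trizol. Kidney RNA was labelled with Cy5 and hybridised against a mouse universal reference RNA labelled with Cy3 on a 2-colour array, in the same dye orientation on every array. The other days of the series, 1, 2 and 5, were used for the common estimate of spread and for the change over time. Sham arrays of all days served as a second control. Among those of the other days S06R, S39R and S03R carry R in their titles, while both day 9 shams carry L. Age and sex are not given in the labels, and nothing in them says that each array is a separate animal, so p-values measure the spread between these samples.

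A kidney whose ureter is blocked dilates, and its tubule cells are stretched, lose their transport machinery and in part die. Monocytes enter from the blood and become macrophages, while fibroblasts and pericytes between the tubules turn into contractile, collagen-secreting myofibroblasts under factors such as TGF-beta. The proximal tubule, which does most of the reabsorbing, burns fatty acids in its many mitochondria to do so. The model is therefore widely used to study renal fibrosis and tubule loss.

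Every value below is a log2 ratio of kidney over reference RNA, so that 1 unit is a 2-fold step. The values of the 4 obstructed arrays are always listed in the order S09L, S34L, S35L, S36L. A difference is the obstructed mean minus the sham mean ± the standard error (SE) of a limma fit, n = 4 against 2, and a gene was called when its Benjamini-Hochberg adjusted p over all 17039 tested genes was below 0.05. Ratios to the reference cannot rank genes against each other, since the reference holds a different amount of each transcript. A whole kidney is a mixture of cells, and fewer cells of a type cannot be told apart from less RNA per cell.

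Some arrays stood apart. The sham arrays S10L and S33L differed by over 1 log2 unit at 1147 genes, against 884, 1100 and 1038 for the sham pairs of days 1, 2 and 5. S10L was the higher for 33 of 34 collagen and elastic fibre genes (median gap 1.11), 28 of 35 monocyte and macrophage genes (0.45) and 30 of 31 interferon-stimulated genes (0.68). The macrophage mean was 0.10 on S10L, above the -0.74 to 0.03 of the shams of other days, with S33L at -0.41 inside that range. For interferon-stimulated genes S10L (-0.07) also lay above those shams (-0.93 to -0.30), with S33L (-0.78) inside. For collagens S10L (-0.10) lay above and S33L (-1.32) below the shams of other days (-0.85 to -0.27). S33L was the higher for 24 of 25 tested genes of a hepatocyte list (median 1.17), a list added after the data had been seen. The mean of that hepatocyte list was 3.71 on S33L, against 1.85 on S10L and 1.71 to 2.12 on the obstructed arrays. Among the obstructed arrays S09L lay over 1 log2 unit from the mean of the others at 991 genes, against 189 to 331 for S34L, S35L and S36L, and it had the most spots without a measured ratio, 9271 against 5147 to 5950. S09L was also the single one of the 6 arrays on which Xist, the RNA that silences an X chromosome in female cells, was low, at -5.31 against 1.87 to 2.32, and Eif2s3y, a gene of the Y chromosome, was high, at 1.60 against -8.63 to -6.97. Read from Xist, both day 9 shams were female, while the shams S08L and S39R of day 2 and S32L of day 5 were male. The control of all sham days thus differs from the day 9 shams in sex and in title letter, and the part of either was not tested.

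Of the 17039 genes 41.3% were called at day 9. Higher in obstructed kidneys were 3613 genes (21.2% of those tested) and lower were 3432 (20.1%). At least a 2-fold change as well was seen for 1886 higher (11.1%) and 1200 lower genes (7.04%). The count rests in part on the sham array S33L: without it 4401 genes were called, against 5895 without S10L, 7267 without S09L and 7139 with a term for sex read from Xist. Under quantile normalization it was 6764. The median difference over all genes was -0.008. Counts of called list members below are to be read against these shares of all genes. Counts without an array are to be read against the count of all genes without it.

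**Figure D1:**
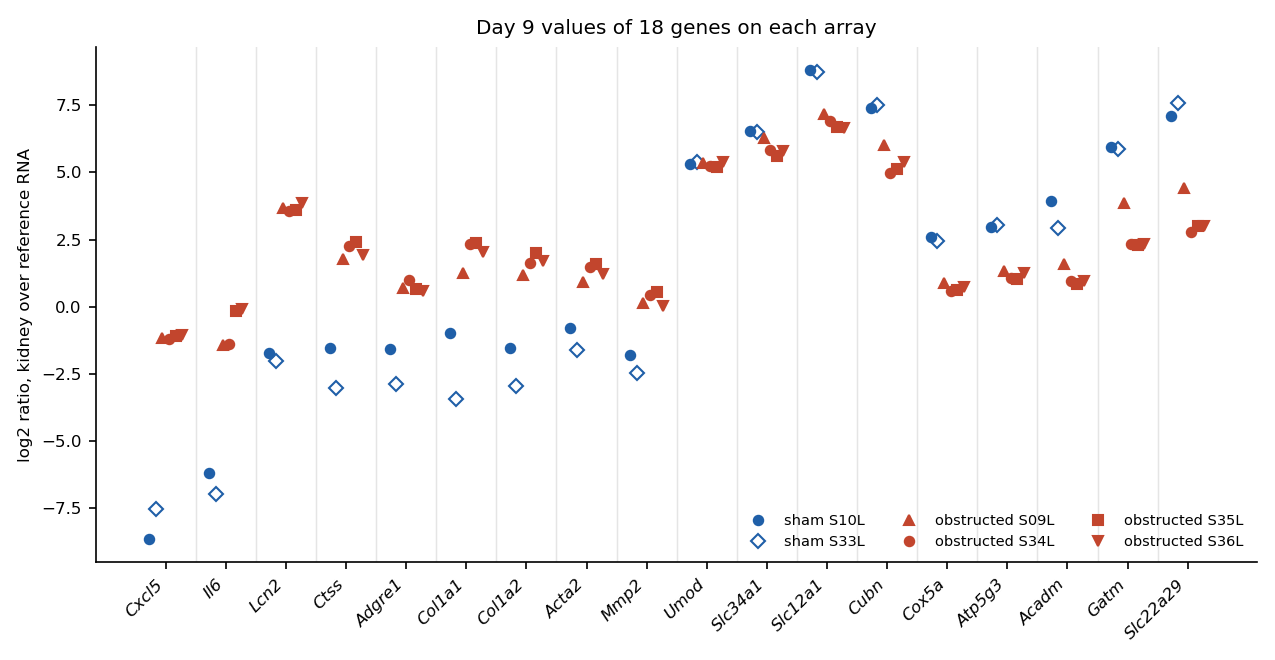
Log2 ratio of kidney over reference RNA (vertical axis) of 18 genes on each day 9 array, with blue for the 2 sham and red for the 4 obstructed arrays. For Cxcl5 the obstructed arrays lie between -1.21 and -1.07, far above sham values of -8.65 and -7.54, while for Umod the 6 values lie between 5.19 and 5.40.

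The largest rise among named genes was that of Cxcl5, a chemokine that attracts neutrophils, with -8.65 on S10L and -7.54 on S33L and -1.18, -1.21, -1.09 and -1.07 in obstructed kidneys. The obstructed values lay close to each other, far from both sham arrays, and the difference was 6.95 ± 0.53, adjusted p = 7.02e-07. Il6, the cytokine interleukin 6, was at -6.20 on S10L and -6.97 on S33L and at -1.44, -1.39, -0.16 and -0.08 on the obstructed arrays. The difference was 5.82 ± 1.19, adjusted p = 0.0011. S09L and S34L were the lower obstructed arrays for Il6, still above both sham arrays. Lcn2, neutrophil gelatinase-associated lipocalin and a marker of injured tubules, rose by 5.55 ± 0.46, adjusted p = 9.04e-07, from -1.72 on S10L and -2.01 on S33L to 3.67, 3.55, 3.62 and 3.87. Other large rises were those of the immediate early transcription factor Egr2 (5.23 ± 0.50, adjusted p = 2.07e-06), the small proline-rich epithelial protein gene Sprr2f (5.21 ± 0.58, adjusted p = 6.24e-06), the oxidised LDL receptor gene Olr1 (5.27 ± 0.61, adjusted p = 9.36e-06), the platelet and myeloid chemokine gene Ppbp (5.17 ± 0.88, adjusted p = 0.000259), and Ccl20 (5.10 ± 0.89, adjusted p = 0.000307), the ligand of CCR6. The macrophage gene Ms4a6d (5.07 ± 0.58, adjusted p = 8.65e-06), the melanotransferrin gene Meltf (4.83 ± 0.45, adjusted p = 1.74e-06), the surfactant protein D gene Sftpd (4.54 ± 0.52, adjusted p = 8.3e-06) and the keratin gene Krt20 (4.47 ± 0.72, adjusted p = 0.000156) completed the 12 largest among genes with a value on all 6 arrays. Kcnh8 (4.64 ± 0.39, adjusted p = 4.77e-06), which has no value on S10L, was left out for that reason. The naming rule asked that every obstructed array lie above both sham arrays, as they did for 29.9% of all genes with a value on the 6 arrays.

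The largest fall among named genes was that of Slc22a29, an organic anion transporter family member of the proximal tubule. Its values were 7.09 on S10L and 7.58 on S33L and 4.43, 2.77, 3.01 and 3.01 in the obstructed kidneys. The difference was -4.03 ± 0.38, adjusted p = 1.95e-06. S09L was the highest obstructed array and still below both sham arrays. Gatm, which makes the creatine precursor guanidinoacetate, showed the same order with 5.94 on S10L and 5.86 on S33L, and 3.87, 2.35, 2.30 and 2.35 after obstruction. The difference was -3.18 ± 0.52, adjusted p = 0.000166. Falls of similar size were measured for the enzyme genes Cyp4f14 (-3.73 ± 0.84, adjusted p = 0.00225, with a difference of -2.40 against sham of all days), Dpys (-3.54 ± 0.37, adjusted p = 4.04e-06), Baat (-3.12 ± 0.55, adjusted p = 0.000339), Gys2 (-3.10 ± 0.40, adjusted p = 2.15e-05) and Mogat2 (-3.25 ± 0.38, adjusted p = 1.04e-05), the kallikrein gene Klk1b16 (-3.62 ± 0.35, adjusted p = 2.28e-06), the monocarboxylate transporter family gene Slc16a4 (-3.20 ± 0.47, adjusted p = 7.41e-05), Pdzrn4 (-3.26 ± 0.42, adjusted p = 2.17e-05) and Mbl2 (-3.19 ± 0.83, adjusted p = 0.00596). The last of the 12 was Ucp1, the uncoupling protein of brown fat, at 5.42 on S10L and 6.30 on S33L and 1.84, 2.58, 3.54 and 1.75. The difference was -3.43 ± 1.29, adjusted p = 0.0434. The adjusted p of Ucp1 was 0.22 without S33L and 0.064 to 0.096 without S10L, S09L, S34L or S36L, 0.054 under quantile normalization, 0.0504 with zeros kept and 0.0517 with the image folder as a block. That of Mbl2 was 0.082 without S33L.

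Collagen and matrix genes rose almost without exception. Of 34 tested collagen and elastic fibre genes 32 were called higher and 0 lower, with a median difference of 2.08, against 21.2% of all genes called higher. Without S33L the count was 25 of 34 and without S10L 33 of 34. Col1a1, which encodes a chain of type I collagen, the main fibre of scar, was at -0.98 on S10L and -3.42 on S33L, and at 1.25, 2.32, 2.38 and 2.04 after obstruction. All 4 obstructed arrays were above both sham arrays, S09L the lowest of them, and the difference was 4.20 ± 0.61, adjusted p = 6.25e-05. The partner chain Col1a2 was at -1.53 on S10L and -2.96 on S33L and at 1.17, 1.64, 1.98 and 1.71. The difference was 3.87 ± 0.44, adjusted p = 7.65e-06. Col3a1, the collagen of reticular fibres, differed by 3.32 ± 0.50, adjusted p = 8.9e-05, Col5a1 by 2.45 ± 0.28, adjusted p = 9.01e-06, the matricellular gene Thbs2 by 2.20 ± 0.26, adjusted p = 1.12e-05, Col18a1 of basement membranes by 1.70 ± 0.19, adjusted p = 6.07e-06 and fibronectin, Fn1, by 1.80 ± 0.25, adjusted p = 4.75e-05. The 2 probes of Col5a1 gave 3.45 and 1.45, and those of Col15a1 1.44 and 3.09, all of them called. The distance of the obstructed mean from S10L (median 1.60 over the list) was smaller than from S33L (2.48). The gap between the shams was large for Dcn, decorin, at 1.83 on S10L and -0.82 on S33L, with 2.79, 3.32, 3.89 and 3.25 on the obstructed arrays, and its call (2.81 ± 0.58, adjusted p = 0.00122) ended without S33L, with an adjusted p of 0.058. Lum, lumican, was at 2.64 on S10L and 0.18 on S33L and 3.73, 5.09, 5.11 and 4.38, a difference of 3.16 ± 0.61, adjusted p = 0.00067 (1.94 without S33L), and Col15a1 at 3.90 on S10L and 1.51 on S33L and 4.82, 4.66, 5.56 and 4.84, where the call (2.27 ± 0.61, adjusted p = 0.00772) also ended without S33L, at 0.25.

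**Figure D2:**
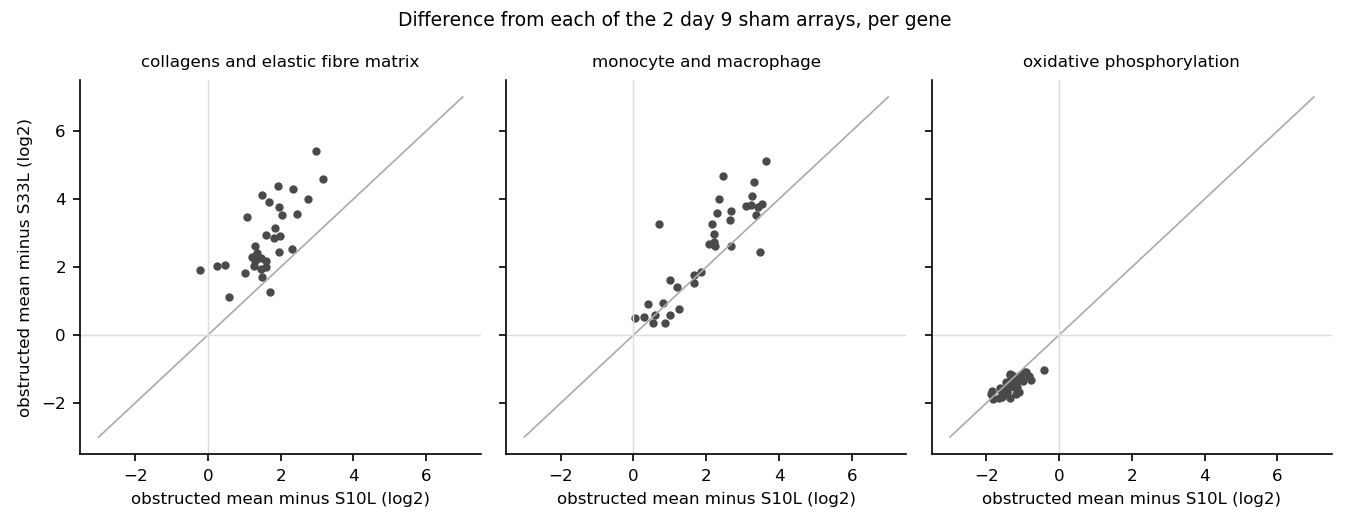
Obstructed mean minus sham array S33L (vertical axis, log2) against obstructed mean minus sham array S10L (horizontal axis, log2), 1 point per tested gene of 3 lists, with the line of equality in grey. Collagen points lie mostly above the line (medians 2.48 and 1.60), while oxidative phosphorylation points lie near it (-1.52 and -1.34).

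Enzymes that cut and cross-link matrix rose too, with 22 of 28 tested genes called higher, 1 lower and a median of 1.84. The median was 1.446 against S10L and 2.103 against S33L. Mmp2, a gelatinase of fibroblasts, was at -1.81 on S10L and -2.48 on S33L and at 0.12, 0.45, 0.55 and 0.02. The difference was 2.43 ± 0.20, adjusted p = 9.04e-07. Mmp14, the membrane protease that activates it, rose by 3.53 ± 0.28, adjusted p = 7.37e-07, from -1.53 on S10L and -2.32 on S33L to 1.12, 1.68, 1.90 and 1.72. The groups did not overlap for either gene. Timp1, a tissue inhibitor of metalloproteinases, differed by 3.41 ± 0.41, adjusted p = 1.27e-05, the collagen cross-linking enzyme gene Lox by 3.43 ± 0.47, adjusted p = 3.51e-05 and its relative Loxl1 by 2.50 ± 0.35, adjusted p = 5.03e-05, the aggrecanase-family gene Adamts1 by 2.70 ± 0.26, adjusted p = 1.95e-06, and the procollagen C-proteinase gene Bmp1 by 1.63 ± 0.18, adjusted p = 6.07e-06. Stromelysin 1, Mmp3, was 2.01 higher on S10L than on S33L and rose by 3.21 ± 0.54, adjusted p = 0.000214. Mmp13, collagenase 3, was at -0.97 on S10L and -2.58 on S33L and at -1.21, -1.96, -1.45 and -1.39, a difference of 0.27 ± 0.53, adjusted p = 0.719 that was not called: the obstructed values lay between the shams.

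Genes of fibroblasts, pericytes and myofibroblasts were called higher in 24 of 28 cases and lower in 0, with a median of 1.93. This median was 1.531 against S10L and 2.339 against S33L. Acta2, the smooth muscle actin that marks myofibroblasts, was at -0.81 on S10L and -1.61 on S33L and 0.91, 1.47, 1.59 and 1.23, a difference of 2.51 ± 0.25, adjusted p = 2.85e-06, and all of its 13 probes rose. Tagln, which encodes the actin-binding protein transgelin, rose by 3.09 ± 0.31, adjusted p = 2.73e-06. The pericyte receptor gene Pdgfrb was at 1.29 on S10L and -0.17 on S33L and 2.74, 2.83, 2.98 and 2.85. The difference was 2.29 ± 0.32, adjusted p = 4.67e-05. Thy1 differed by 3.63 ± 0.32, adjusted p = 1.29e-06, Actg2 by 2.02 ± 0.22, adjusted p = 5.47e-06, Cnn1 by 2.67 ± 0.49, adjusted p = 0.000428 and Cthrc1 by 3.62 ± 0.65, adjusted p = 0.000371 (2.19 without S33L and 2.01 with zeros kept as ratios of 1). Vim differed by 1.21 ± 0.28, adjusted p = 0.00252, but its 2 probes gave -0.21 and 2.88, and its adjusted p was 0.075 without S33L and 0.067 under quantile normalization. Des, desmin, was at 0.45 on S10L and -1.28 on S33L, with 0.86, 1.70, 2.11 and 1.58 after obstruction, and its adjusted p went from 0.00204 to 0.09 without S33L. S09L was the lowest obstructed array for 21 of the 28 genes and for 25 of the 34 collagen genes.

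In the TGF-beta, activin and BMP pathway 16 of 29 tested genes rose and 2 fell, with a median of 0.83. Against S10L that median was 0.523 and against S33L 1.075. Among ligands Tgfb1 was at -1.24 on S10L and -1.55 on S33L and 0.26, 0.44, 0.44 and 0.41, a difference of 1.78 ± 0.21, adjusted p = 9.54e-06, and Inhba, a subunit of activin A, was at -2.92 on S10L and -2.98 on S33L and -0.08, 0.10, 0.42 and 0.41. The difference was 3.16 ± 0.35, adjusted p = 6.65e-06. Bmp7, a ligand made by healthy tubules, fell by 1.48 ± 0.12, from 2.97 on S10L and 3.27 on S33L to 1.81, 1.49, 1.65 and 1.61, with an adjusted p of 7.37e-07. Ltbp2, a latent TGF-beta binding protein family member, rose by 3.18 ± 0.24, adjusted p = 6.56e-07 and the TGF-beta-induced matrix gene Tgfbi by 2.79 ± 0.30, adjusted p = 5.45e-06.

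Monocyte and macrophage genes were called higher in 28 of 35 cases and lower in 0, with a median of 2.48, which was 2.20 against S10L and 2.66 against S33L. Cd68 and Csf1r had no tested value. Adgre1, the F4/80 antigen of mouse macrophages, was at -1.57 on S10L and -2.87 on S33L and 0.68, 1.0, 0.65 and 0.58. The difference was 2.95 ± 0.38, adjusted p = 2.28e-05. Ctss, cathepsin S, was at -1.54 on S10L and -3.04 on S33L and 1.76, 2.26, 2.42 and 1.91. The difference was 4.38 ± 0.42, adjusted p = 1.93e-06. Trem2, a lipid receptor of tissue macrophages, was at -3.42 on S10L and -3.59 on S33L and 0.14, -0.13, 0.09 and -0.29, where both groups were tight and the difference was 3.46 ± 0.21, adjusted p = 2.45e-07. Its signalling partner Tyrobp rose by 3.02 ± 0.29, adjusted p = 1.91e-06 and galectin 3, Lgals3, by 1.85 ± 0.16, adjusted p = 1.18e-06. The receptors with the widest gap between shams were Cd163, at 4.41 on S10L and 1.85 on S33L and 5.88, 5.08, 4.81 and 4.67, Ccr2, at 5.81 on S10L and 3.60 on S33L and 7.69, 8.29, 8.75 and 8.38, and Mrc1, at 4.63 on S10L and 2.98 on S33L and 7.18, 6.81, 7.19 and 6.76. Ccr2 (3.57 ± 0.65, adjusted p = 0.000432) and Mrc1 (3.18 ± 0.49, adjusted p = 0.000108) remained called without S33L, and Cd163 (1.98 ± 0.66, adjusted p = 0.0257) did not, with a difference of 0.70 and an adjusted p of 0.5; that p was 0.058 without S09L and 0.071 with the day 9 arrays alone.

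In the neutrophil list 8 of 12 tested genes were called higher (66.7%, against 21.2% of all genes) and 0 lower (median 2.62). Its largest difference, 5.55, was that of Lcn2, given above as a marker of injured tubules, so the count is not of neutrophil transcripts alone. The median distance of the obstructed mean was 1.845 from S10L and 3.381 from S33L. Among those called were the receptor genes Csf3r (3.30 ± 0.54, adjusted p = 0.00027, a difference of 2.17 without S33L) and Il1r2 (3.57 ± 0.68, adjusted p = 0.000654). S100a8 rose by 2.82 ± 0.82, adjusted p = 0.0122 (0.15 without S33L), and its partner S100a9 was not called (1.05 ± 0.41, adjusted p = 0.0521, and 0.031 without S10L and 0.0064 under quantile normalization). Retnlg, at 1.98 on S10L and -1.39 on S33L and 2.01, 2.16, 4.02 and 2.64, was not called (2.41 ± 0.95, adjusted p = 0.0531), but was without S10L (0.0076) and without S09L (0.049). S100a9 was also called with the day 9 arrays alone (0.033). Retnlg was also called with array weights (0.029), with S03L and S03R apart (0.047) and with only probes measured on all 22 arrays (0.049). Of 29 tested T and NK cell genes 11 were called higher (37.9%, against 21.2% of all genes) and 0 lower (median 0.97). The median distance of the obstructed mean was 0.636 from S10L and 1.316 from S33L. Without S34L 7 of the 29 were called, as 3319 of 17045 genes were called higher. The T cell receptor component Cd3e was at -1.01 on S10L and -1.10 on S33L and -0.36, -0.89, -1.01 and -1.14, a difference of 0.21 ± 0.21, adjusted p = 0.463, and the co-receptors Cd4 (-0.24 ± 0.09, adjusted p = 0.0528, and 0.029 without S09L) and Cd8a (0.18 ± 0.43, adjusted p = 0.773) were not called either. Cd4 was called lower against sham of all days (adjusted p = 0.0068), without median subtraction (0.015), with array weights (0.022) and with zeros kept (0.027). It was also called lower with only probes measured on all 22 arrays (0.039) and under quantile normalization (0.0499). Il7r, the interleukin 7 receptor, rose by 3.0 ± 0.42, adjusted p = 8.46e-05 (a difference of 1.0 with zeros kept as ratios of 1) and the chemokine gene Ccl5 by 2.54 ± 0.45, adjusted p = 0.000344. Zap70 rose by 0.91 ± 0.22, adjusted p = 0.00336, but its adjusted p was 0.092 without S33L and 0.17 under quantile normalization. Pdcd1 was called at 0.58 ± 0.13, adjusted p = 0.00268, but under quantile normalization its difference was -0.27, adjusted p = 0.22. Cxcr3 rose by 2.07 ± 0.53, adjusted p = 0.00519, with an adjusted p of 0.16 without S33L, while Cd3d (1.68 ± 0.69, adjusted p = 0.0629), Cxcr6 (1.68 ± 0.84, adjusted p = 0.122) and Klrd1 (1.38 ± 0.75, adjusted p = 0.155) were not called. Against sham of all days these 3 genes were called, at differences of 2.71, 2.93 and 2.46 with adjusted p of 0.000219, 0.000609 and 0.001. Cd3d was also called without S10L (0.0498) and with the day 9 arrays alone (0.0431). Of 17 B and plasma cell genes 7 were called higher (41.2%, against 21.2% of all genes), with a median of 0.79. The median distance of the obstructed mean was 0.528 from S10L and 1.030 from S33L. Among those called were Cd22 (1.62 ± 0.38, adjusted p = 0.0029, a difference of 1.06 with zeros kept), Cd72 (1.94 ± 0.36, adjusted p = 0.000544), Ighm (1.94 ± 0.41, adjusted p = 0.00146, 12 of its 13 probes called) and Sdc1 (2.13 ± 0.24, adjusted p = 7.65e-06), which epithelia express as well. The B cell gene Ms4a1 differed by 0.88 ± 0.75, adjusted p = 0.369.

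Antigen presentation genes rose as well. In the dendritic cell and MHC class II list 15 of 21 were called higher and 0 lower (median 1.22). Cd74, the invariant chain of class II molecules, was at 1.17 on S10L and 0.16 on S33L and 3.10, 3.01, 2.94 and 2.91, a difference of 2.33 ± 0.31, adjusted p = 2.77e-05, and Cd40 rose by 1.95 ± 0.22, adjusted p = 8.22e-06 and Ccr7 by 2.97 ± 0.44, adjusted p = 8.32e-05. H2-Aa (0.81 ± 0.38, adjusted p = 0.102) was not called, and 1 of its 2 probes was; the gene was called against sham of all days (0.0058), with the day 9 arrays alone (0.014) and under quantile normalization (0.019). In the MHC class I and immunoproteasome list 12 of 16 rose (median 0.97), including B2m (1.32 ± 0.19, adjusted p = 6.39e-05), H2-K1 (1.35 ± 0.19, adjusted p = 4.5e-05) and Psmb8 (1.90 ± 0.22, adjusted p = 1e-05). Of 31 interferon-stimulated genes 20 rose and 0 fell (median 1.06), and 11 did without S33L. Isg15, a ubiquitin-like protein gene, differed by 1.43 ± 0.24, adjusted p = 0.000215, Irf1 by 1.50 ± 0.22, adjusted p = 5.99e-05 (0.99 with zeros kept) and Cxcl10 by 2.58 ± 0.44, adjusted p = 0.000237. Of 18 complement genes 9 rose. C3ar1, the receptor of the C3a fragment, was at -1.24 on S10L and -1.91 on S33L and 1.76, 1.53, 0.98 and 0.91. It differed by 2.87 ± 0.29, adjusted p = 3e-06, but its 2 probes, both called, gave 4.57 and 1.18. C1s1 (2.16 ± 0.29, adjusted p = 3.15e-05, a difference of 1.40 without S33L) and properdin, Cfp (2.12 ± 0.22, adjusted p = 3.58e-06), rose as well.

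Chemokine, cytokine and adhesion genes rose in 28 of 36 cases and fell in 0, with a median of 2.17. Cxcl1, a neutrophil chemokine, was at -5.04 on S10L and -4.99 on S33L and -1.72, -1.42, -0.30 and 0.05. The difference was 4.17 ± 0.53, adjusted p = 2.12e-05. Cxcl2, its neighbour on chromosome 5, was at -2.46 on S10L and -1.62 on S33L and 2.38, 0.20, 1.07 and 2.15. The difference was 3.49 ± 0.66, adjusted p = 0.000622. The obstructed arrays spread widely for both genes and all lay above both sham arrays. Ccl2, which draws monocytes through CCR2, rose by 1.66 ± 0.25, adjusted p = 9.32e-05, the adhesion molecule gene Icam1 by 2.34 ± 0.25, adjusted p = 4.55e-06, the CSF1 receptor ligand gene Il34 by 2.97 ± 0.29, adjusted p = 2.27e-06, and the selectin ligand gene Selplg by 2.10 ± 0.21, adjusted p = 2.45e-06.

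The promoters of 3 of these genes and of an oxidative phosphorylation gene described further on are shown, since each holds a short sequence that regulators of such genes are known to bind. The windows are RefSeq, GRCm38.p6, from 250 bases before to 50 after the gene start, printed along the gene's strand with the motif in capitals. Cxcl1 is at chr5:90890995-90891294 (+), Cxcl2 at chr5:90903649-90903948 (+), Il6 at chr5:30012864-30013163 (+) and Atp5g3 at chr2:73911277-73911576 (-). In the chemokine and cytokine promoters the capitals are the kB element, bound by NF-kB, and in Atp5g3 they are TCAAGGTCA read on the other strand, an element bound by oestrogen-related receptors. In Cxcl1 and Cxcl2 the capitals are 2 overlapping matches, 1 on each strand.
Cxcl1: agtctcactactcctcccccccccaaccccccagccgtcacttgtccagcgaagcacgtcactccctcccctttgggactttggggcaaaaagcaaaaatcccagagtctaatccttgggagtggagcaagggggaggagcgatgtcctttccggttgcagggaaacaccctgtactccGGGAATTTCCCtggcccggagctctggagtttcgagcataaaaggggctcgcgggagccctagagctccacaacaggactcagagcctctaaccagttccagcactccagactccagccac
Cxcl2: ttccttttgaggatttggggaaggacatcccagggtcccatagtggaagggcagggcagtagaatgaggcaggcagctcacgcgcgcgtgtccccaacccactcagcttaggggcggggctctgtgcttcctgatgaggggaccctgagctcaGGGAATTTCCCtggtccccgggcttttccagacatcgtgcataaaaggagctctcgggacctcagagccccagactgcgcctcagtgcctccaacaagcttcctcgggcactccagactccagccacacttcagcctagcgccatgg
Il6: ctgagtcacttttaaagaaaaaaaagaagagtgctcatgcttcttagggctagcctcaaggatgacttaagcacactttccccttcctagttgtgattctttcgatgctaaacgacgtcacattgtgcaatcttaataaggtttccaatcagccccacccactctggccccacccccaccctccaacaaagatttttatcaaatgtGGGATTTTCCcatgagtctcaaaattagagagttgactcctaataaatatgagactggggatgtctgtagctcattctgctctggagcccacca
Atp5g3: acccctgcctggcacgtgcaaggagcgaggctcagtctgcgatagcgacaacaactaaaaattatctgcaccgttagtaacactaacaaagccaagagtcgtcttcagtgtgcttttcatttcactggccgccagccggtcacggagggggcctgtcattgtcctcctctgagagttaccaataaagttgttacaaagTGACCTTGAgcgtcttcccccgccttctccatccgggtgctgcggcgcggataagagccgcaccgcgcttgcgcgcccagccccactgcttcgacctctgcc

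On either strand the kB element was found in 6 of 26 chemokine, cytokine and adhesion genes with a promoter in the table (23.1%) and in 6 of 19 immediate early genes (31.6%), against 5.14% of 27025 genes. TCAAGGTCA was found in 2 of 38 oxidative phosphorylation genes (5.26%), against 0.466%. These motifs and lists were picked after the counts were seen, out of 8 motifs searched in 40 lists. The kB element was above the share of all genes in 21 of the 40 lists, among them adipose genes (28.6%), of which 0 were called higher, so the shares describe these windows alone.

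Markers of injured tubules rose in 21 of 24 cases and fell in 0, with a median of 2.18, and 20 rose without S33L. Besides Lcn2, Cd44, a hyaluronan receptor, was at -4.13 on S10L and -5.04 on S33L and -1.03, -0.89, -0.67 and -0.69, a difference of 3.76 ± 0.30, adjusted p = 7.99e-07, and Anxa1 (2.59 ± 0.22, adjusted p = 1.05e-06) and Anxa2 (1.67 ± 0.15, adjusted p = 1.69e-06), which bind membranes in the presence of calcium, rose. Havcr1, kidney injury molecule 1, differed by 2.03 ± 0.49, adjusted p = 0.00373, but its 2 probes gave 0.31 and 3.75, and its adjusted p was 0.057 without S33L. Immediate early genes, which answer within minutes to stress and growth factors, rose in 18 of 24 cases (median 1.59). Fos was at -4.89 on S10L and -6.44 on S33L and -2.91, -2.28, -1.63 and -2.39, a difference of 3.36 ± 0.46, adjusted p = 3.76e-05, and Jun (2.34 ± 0.19, adjusted p = 9.04e-07), Junb (2.57 ± 0.27, adjusted p = 4.74e-06), Egr1 (2.97 ± 0.39, adjusted p = 2.85e-05) and Klf6 (2.01 ± 0.22, adjusted p = 4.98e-06) rose as well. S09L was the lowest obstructed array for 19 of the 24 genes.

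Of 42 cell cycle genes 21 were called higher and 1 lower, with a median of 0.95. This count depended on single arrays and on the scaling: it was 2 without S33L, 11 to 13 without any single other of the 6 arrays, 34 when the day 9 arrays were fitted alone and 2 under quantile normalization. The arrest gene Cdkn1a, p21, was at -2.64 on S10L and -2.48 on S33L and -0.84, -0.41, -0.39 and -0.50. The difference was 2.02 ± 0.40, adjusted p = 0.000926. Mcm4, a subunit of the replication helicase, rose by 1.18 ± 0.27, adjusted p = 0.00221 (0.61 under quantile normalization and 0.55 with zeros kept), Cks2 fell by 1.09 ± 0.20 (adjusted p = 0.00049), and neither Mki67 (1.60 ± 0.64, adjusted p = 0.0562) nor Ccnd1 (-0.89 ± 0.39, adjusted p = 0.0826) was called. Against sham of all days both were (0.015 and 0.014), as they were with the day 9 arrays alone (0.0076 and 0.023). Mki67 was also called with S03L and S03R apart (0.0496), and Ccnd1 with array weights (0.032). In the list of p53 targets and cell death genes 14 of 28 rose and 3 fell. The necroptosis kinase gene Ripk3 was at -3.01 on S10L and -3.31 on S33L and -0.82, -0.58, -0.52 and -0.56, a difference of 2.54 ± 0.24, adjusted p = 2.07e-06, the pyroptosis gene Gsdmd differed by 1.59 ± 0.13, adjusted p = 9.04e-07 and the apoptosis gene Bbc3 by 1.51 ± 0.13, adjusted p = 1.18e-06. Lysosomal genes went both ways, 9 up (33.3%, against 21.2% of all genes) and 8 down (29.6%, against 20.1%) of 27. The median distance of the obstructed mean was -0.120 from S10L and -0.039 from S33L. Ctsc rose by 2.69 ± 0.22, adjusted p = 9.04e-07 and Gusb by 1.15 ± 0.12, adjusted p = 3.53e-06, while Neu1 fell by 1.56 ± 0.26 (adjusted p = 0.000185).

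**Figure D3:**
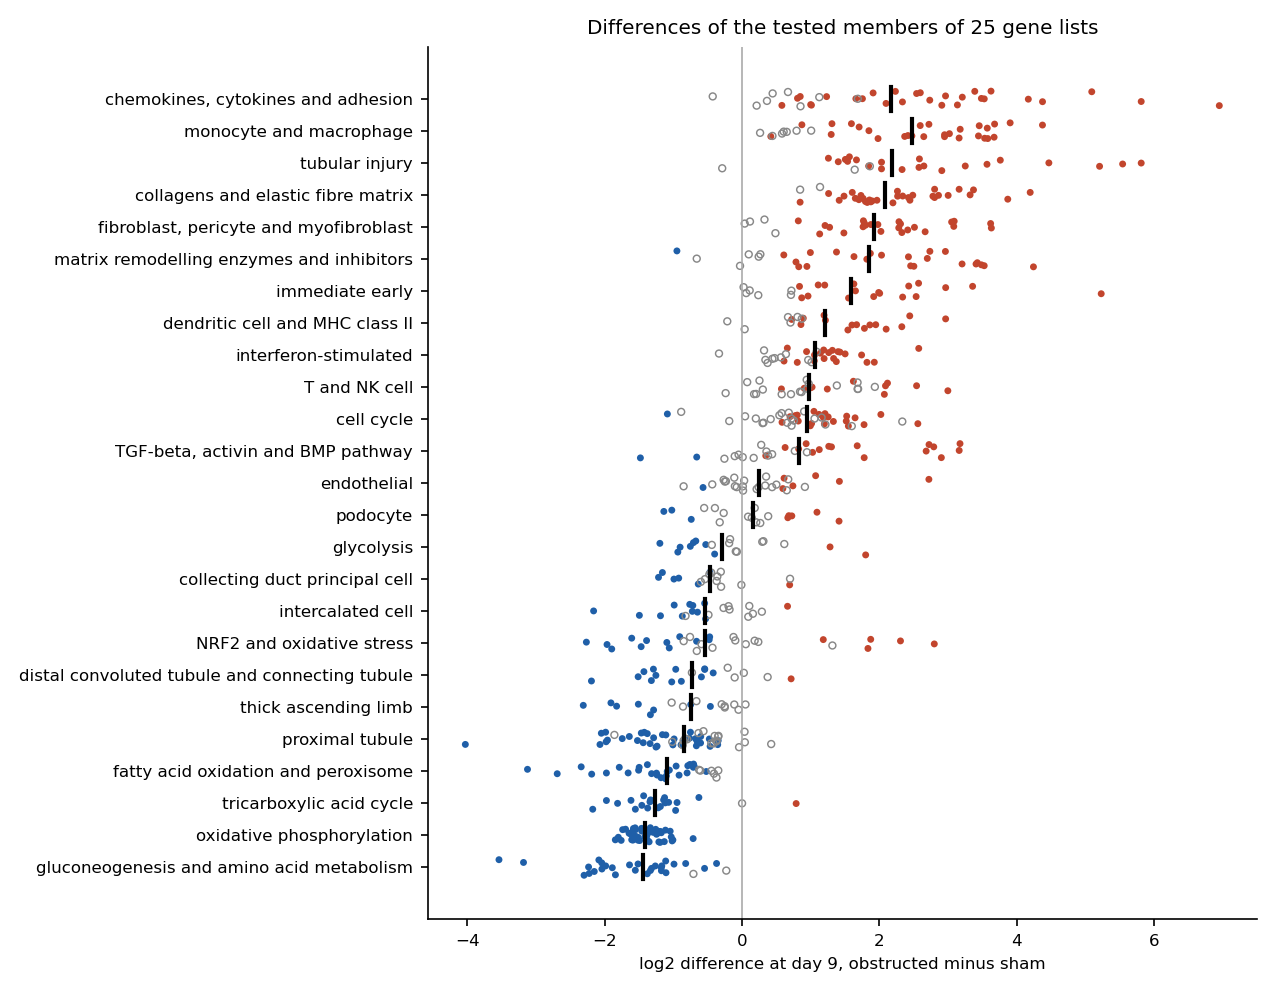
Log2 difference at day 9, obstructed minus sham (horizontal axis), of each tested member of 25 gene lists, with red for called higher, blue for called lower, grey rings for not called and a black bar for the list median. Medians run from 2.48 for monocyte and macrophage genes to -1.45 for gluconeogenesis and amino acid genes, and all 49 oxidative phosphorylation genes are blue.

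Every one of 49 tested oxidative phosphorylation genes fell, against 20.1% of all genes, with a median difference of -1.41 and a range from -1.84 to -0.71. Without S33L 48 were called and without S10L 49. Cox5a, a subunit of cytochrome c oxidase, was at 2.58 on S10L and 2.44 on S33L and at 0.89, 0.59, 0.63 and 0.73. The difference was -1.80 ± 0.10, adjusted p = 2.45e-07. Atp5g3, of the membrane ring of ATP synthase, was at 2.98 on S10L and 3.03 on S33L and at 1.31, 1.06, 1.01 and 1.26. The difference was -1.84 ± 0.13, adjusted p = 4.81e-07. The groups were apart by more than 1 log2 unit for both genes. Ndufs3 of complex I differed by -1.35 ± 0.10, adjusted p = 7.37e-07, Sdhd of complex II by -1.41 ± 0.13, adjusted p = 1.2e-06, Uqcrc2 of complex III by -1.59 ± 0.11, adjusted p = 4.51e-07 and Atp5b of ATP synthase by -1.36 ± 0.20, adjusted p = 5.67e-05. S09L was the highest obstructed array for 46 of the 49.

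The pathways that feed the respiratory chain fell alongside. In the tricarboxylic acid cycle 20 of 22 genes fell and 1 rose (median -1.27), with Suclg1 at 2.13 on S10L and 2.23 on S33L and 0.99, 0.41, 0.37 and 0.49, a difference of -1.62 ± 0.15, adjusted p = 1.83e-06, Idh2 at -1.55 ± 0.19, adjusted p = 1.81e-05 and citrate synthase, Cs, at -0.63 ± 0.12, adjusted p = 0.000469. Of 33 fatty acid oxidation and peroxisome genes 27 fell and 0 rose (median -1.09). Acadm, the medium-chain acyl-CoA dehydrogenase, was at 3.94 on S10L and 2.93 on S33L and 1.60, 0.97, 0.84 and 0.97, a difference of -2.34 ± 0.25, adjusted p = 4.58e-06, and catalase, Cat, was at 3.49 on S10L and 3.43 on S33L and 1.86, 0.97, 1.05 and 1.23. The difference was -2.19 ± 0.21, adjusted p = 1.85e-06. Etfa and Hadh differed by -1.51 ± 0.12, adjusted p = 7.37e-07 and -1.66 ± 0.14, adjusted p = 9.04e-07, and Ppara, the nuclear receptor that switches such genes on, by -0.80 ± 0.14, adjusted p = 0.000278. Cpt1a, the mitochondrial gatekeeper, was not called (-0.61 ± 0.37, adjusted p = 0.201), but was with the day 9 arrays alone (0.0063) and against sham of all days (0.044). Gluconeogenesis and amino acid genes fell in 28 of 30 cases (median -1.45), with Ass1, of arginine synthesis, at 4.07 on S10L and 4.08 on S33L and 2.88, 1.58, 1.57 and 1.66. The difference was -2.15 ± 0.34, adjusted p = 0.000137. Pck1, the rate-limiting enzyme gene of gluconeogenesis, was not called (-0.71 ± 0.28, adjusted p = 0.0563), and its difference was 0.10 under quantile normalization. It was called at -0.84 (0.0022) against sham of all days. It was also called lower without median subtraction (0.045), with array weights (0.035), with the day 9 arrays alone (0.012) and with a term for sex (0.047). Of 18 glycolysis genes 2 were called higher (11.1%, against 21.2% of all genes) and 8 lower (44.4%, against 20.1%). The median distance of the obstructed mean was -0.341 from S10L and -0.245 from S33L. Hk2 differed by 1.28 ± 0.36, adjusted p = 0.0103 (0.07 under quantile normalization), and its call ended without S33L, at a difference of 1.20. Pgk1 differed by -1.20 ± 0.17, adjusted p = 4.5e-05. Ldha (-0.19 ± 0.16, adjusted p = 0.376, but 0.005 against sham of all days) and Pkm (0.30 ± 0.18, adjusted p = 0.196) were not called.

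Of 28 NRF2 and oxidative stress genes 5 rose (17.9%, against 21.2% of all genes) and 12 fell (42.9%, against 20.1%). The glutathione transferase gene Gsta1 was at 4.98 on S10L and 5.16 on S33L and 2.94, 2.43, 2.68 and 3.17, a difference of -2.27 ± 0.21, adjusted p = 1.85e-06, and Gsta2 (-1.47 ± 0.13, adjusted p = 1.64e-06), the mitochondrial superoxide dismutase gene Sod2 (-1.90 ± 0.15, adjusted p = 7.99e-07) and Nqo1 (-1.39 ± 0.26, adjusted p = 0.000552) fell. Ncf4, a subunit of the phagocyte NADPH oxidase, rose by 2.31 ± 0.22, adjusted p = 2.28e-06, and Hmox1, haem oxygenase 1, by 1.18 ± 0.43, adjusted p = 0.0372, with an adjusted p of 0.25 without S33L and 0.051 to 0.072 without any other of the 6 arrays. That p was 0.15 under quantile normalization, 0.063 with zeros kept and 0.054 with a term for sex. Among nuclear receptors and nephron transcription factors 3 of 27 rose (11.1%) and 13 fell (48.1%), against the same shares of all genes. Esrra, an oestrogen-related receptor, differed by -1.06 ± 0.16, adjusted p = 8.25e-05, the coactivator Ppargc1b by -1.62 ± 0.18, adjusted p = 6.88e-06 and the vitamin D receptor gene Vdr by -1.31 ± 0.17, adjusted p = 2.19e-05, while Esrrg did not pass (-0.22 ± 0.18, adjusted p = 0.327, but 0.027 against sham of all days). Foxj1, which drives motile cilia, went the other way, from -0.61 on S10L and -1.82 on S33L to 3.25, 3.17, 3.17 and 3.33, a difference of 4.45 ± 0.45, adjusted p = 3.23e-06.

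Proximal tubule genes fell in 34 of 53 cases and rose in 0, with a median of -0.85, and 21 fell without S33L, 26 without S10L, 45 without S09L and 23 under quantile normalization. Cubn, which takes filtered protein back up, was at 7.42 on S10L and 7.50 on S33L and 6.04, 4.99, 5.14 and 5.40. The difference was -2.07 ± 0.30, adjusted p = 5.98e-05. Slc7a8, an amino acid transporter gene, was at 6.21 on S10L and 6.25 on S33L and 4.60, 4.08, 4.17 and 4.14, a difference of -1.98 ± 0.16, adjusted p = 9.04e-07, and the aspartic protease gene Napsa differed by -1.96 ± 0.24, adjusted p = 1.47e-05. The phosphate transporter gene Slc34a1 was at 6.54 on S10L and 6.52 on S33L and 6.27, 5.82, 5.62 and 5.80, a difference of -0.65 ± 0.15, adjusted p = 0.00306, but under quantile normalization it was -0.23, adjusted p = 0.15. Lrp2, megalin, differed by -0.85 ± 0.24, adjusted p = 0.00884, with an adjusted p of 0.33 without S33L, 0.081 with the day 9 arrays alone and 0.056 under quantile normalization. Kap differed by -0.66 ± 0.26, adjusted p = 0.0487, with an adjusted p of 0.083 to 0.23 without any single array other than S09L, 0.12 with the day 9 arrays alone and 0.0513 with no filter beyond 1 value per group, and its difference was 0.076 under quantile normalization. The glucose transporter gene Slc5a2 was not called (-0.34 ± 0.17, adjusted p = 0.118, and 0.027 without S09L and 0.0049 against sham of all days). It was also called with array weights (0.026) and with a term for sex (0.0499). S09L was the highest obstructed array for 45 of the 53 genes, and its mean over the list was 4.94, between 4.23 to 4.27 on the other obstructed arrays and 5.35 and 5.44 on the shams.

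Genes of later nephron segments fell in part. In the thick ascending limb 8 of 17 fell and 0 rose (median -0.75). Slc12a1, the furosemide-sensitive salt transporter, was at 8.80 on S10L and 8.75 on S33L and 7.19, 6.93, 6.69 and 6.65, a difference of -1.91 ± 0.28, adjusted p = 7.65e-05, and Egf fell by 1.51 ± 0.22 (adjusted p = 6.84e-05), whereas uromodulin, Umod, was at 5.32 on S10L and 5.38 on S33L and 5.36, 5.25, 5.19 and 5.40. The difference was -0.05 ± 0.17, adjusted p = 0.837. In the distal convoluted and connecting tubule 13 of 19 fell and 1 rose (median -0.73), with Wnk4 at -1.29 ± 0.19, adjusted p = 6.05e-05, Slc12a3, the thiazide-sensitive transporter, at -0.54 ± 0.16, adjusted p = 0.0122 and Calb1 at -0.42 ± 0.15, adjusted p = 0.0394. The adjusted p was 0.089 for Slc12a3 and 0.19 for Calb1 without S33L, and 0.098 to 0.1 for Calb1 without S10L, S35L or S36L. Under quantile normalization their differences were -0.28 (0.16) and -0.0575 (0.7), and the adjusted p of Calb1 was 0.12 with the day 9 arrays alone. Principal cell genes of the collecting duct fell in 6 of 17 cases (35.3%, against 20.1% of all genes) and rose in 1 (5.88%, against 21.2%). The median distance of the obstructed mean was -0.308 from S10L and -0.615 from S33L. The water channel gene Aqp2 was at 3.0 on S10L and 2.91 on S33L and 2.20, 1.58, 1.63 and 1.78. It differed by -1.16 ± 0.15, adjusted p = 2.34e-05, and Aqp3 by -1.22 ± 0.25, adjusted p = 0.00104. The sodium channel subunit gene Scnn1g was not called (-0.54 ± 0.23, adjusted p = 0.0737, a difference of -0.92 without S10L). It was called without S09L (0.035), against sham of all days (0.0046), with array weights (0.018) and with a term for sex (0.020). Of 21 genes of intercalated cells, which secrete acid or base, 11 fell (7 without S33L) and 1 rose: Slc4a1 was at 4.61 on S10L and 4.88 on S33L and 3.05, 2.80, 2.08 and 2.42, a difference of -2.16 ± 0.37, adjusted p = 0.000255, while Atp6v1g3 (-0.27 ± 0.21, adjusted p = 0.325, but 0.011 against sham of all days) and Foxi1 (0.16 ± 0.55, adjusted p = 0.842) were not called.

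**Figure D4:**
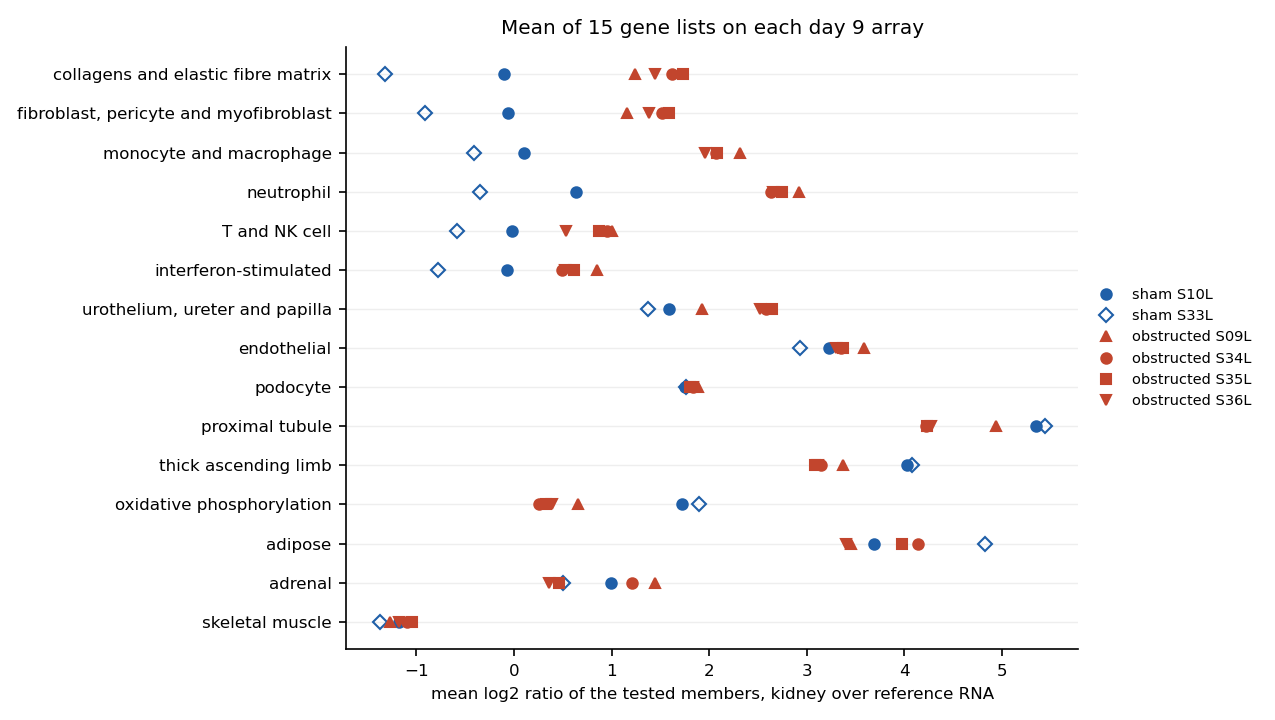
Mean log2 ratio of kidney over reference RNA (horizontal axis) of the tested members of 15 gene lists on each day 9 array, with blue for the 2 sham and red for the 4 obstructed arrays. The shams are apart for collagens (-0.10 on S10L and -1.32 on S33L) and close for the proximal tubule (5.35 and 5.44), where the obstructed array S09L, at 4.94, lies above the other obstructed arrays.

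Counts in glomerular and vascular lists are to be read against the 21.2% of all genes called higher and the 20.1% called lower. In podocytes, the filter cells of the glomerulus, 5 of 18 were called higher (27.8%, and 2 without S33L) and 3 lower (16.7%), shares near those of all genes (median 0.16), with nephrin, Nphs1, at 4.0 on S10L and 4.99 on S33L and 4.25, 3.43, 3.79 and 3.54, a difference of -0.74 ± 0.26, adjusted p = 0.0345 whose adjusted p was 0.57 without S33L and 0.054 to 0.083 without S34L, S35L or S36L. That p of Nphs1 was 0.13 with the day 9 arrays alone, 0.094 against sham of all days and 0.063 under quantile normalization. Podxl was not called (-0.32 ± 0.19, adjusted p = 0.197, but 0.0052 against sham of all days), with Nes at 1.41 ± 0.34, adjusted p = 0.00338 and Vegfa at -1.02 ± 0.20, adjusted p = 0.000755. Of 27 endothelial genes 6 were called higher (22.2%, near the share of all genes) and 1 lower (3.70%), with a median of 0.24, and without S33L 1 was called higher. Pecam1 was at 1.34 on S10L and 0.37 on S33L and 1.31, 1.34, 1.53 and 1.63, a difference of 0.60 ± 0.23, adjusted p = 0.0467 (0.76 without S33L, and 0.056 to 0.099 without S34L, S35L or S36L). Its call also ended under 8 of the other alternatives, with adjusted p of 0.052 to 0.13. The vascular endothelial growth factor receptor gene Kdr (-0.23 ± 0.23, adjusted p = 0.437) and Cdh5 (0.50 ± 0.26, adjusted p = 0.13, but 0.0034 under quantile normalization) were not called, and the lymphatic gene Lyve1 rose by 2.72 ± 0.63, adjusted p = 0.00289, with an adjusted p of 0.079 without S33L. Urothelial genes were called higher in 8 of 17 cases (47.1%, against 21.2% of all genes), with a median of 0.76. The median distance of the obstructed mean was 0.652 from S10L and 0.896 from S33L. Krt14 was at -1.10 on S10L and -1.29 on S33L and 1.30, 2.38, 2.15 and 2.15, a difference of 3.19 ± 0.40, adjusted p = 1.9e-05, Krt5 differed by 0.86 ± 0.27, adjusted p = 0.0192 (0.1 without S33L and 0.078 without S10L) and Upk1b was not called (1.59 ± 0.80, adjusted p = 0.126), but was at 2.71 (0.0008) against sham of all days. In the renin-angiotensin and vasoactive list 4 of 18 were called higher (22.2%) and 5 lower (27.8%), shares near those of all genes, against 1 and 3 genes without S33L: the endothelin gene Edn1 rose by 3.30 ± 0.37, adjusted p = 6.97e-06, the receptor gene Agtr1b fell by 1.81 ± 0.41 (adjusted p = 0.00238, and 0.071 without S33L) and Agt was not called (-0.35 ± 0.14, adjusted p = 0.0616, but 0.046 without S10L and 0.0017 against sham of all days).

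Genes of neighbouring tissue and blood were examined as well. Of 11 adipose genes 0 were called higher and 2 lower (18.2%), with Adipoq at 5.41 on S10L and 5.98 on S33L and 5.61, 5.91, 5.45 and 5.44 and a difference of -0.09 ± 1.24, adjusted p = 0.961, and Plin1 not called (0.51 ± 1.35, adjusted p = 0.791). The mean of the adipose list was 3.69 on S10L, 4.82 on S33L and 3.40 to 4.14 on the obstructed arrays. Of 10 adrenal genes 0 were called higher and 1 lower. Star, with neither of its 2 probes called, was at 1.45 on S10L and 0.35 on S33L and 1.56, 2.70, 0.63 and 0.82. Of 11 skeletal muscle genes 1 was called, Acta1 (2.35 ± 0.75, adjusted p = 0.02), and its call ended without S33L, at a difference of 1.92. Ckm was not called (-0.53 ± 1.02, adjusted p = 0.712). The haemoglobin gene Hba-a1 was at 4.37 on S10L and 4.24 on S33L and 4.24, 4.62, 4.42 and 4.69. The difference was 0.19 ± 0.16, adjusted p = 0.377. In the lipid and lipoprotein list 3 of 22 rose (13.6%, against 21.2% of all genes) and 8 fell (36.4%, against 20.1%). The median distance of the obstructed mean was -0.383 from S10L and -0.598 from S33L. Among those that fell were the fatty acid binding protein genes Fabp1 (-2.98 ± 0.50, adjusted p = 0.000213) and Fabp3 (-2.23 ± 0.33, adjusted p = 6.93e-05). Apoe was not called (0.44 ± 0.19, adjusted p = 0.0737, but 0.00085 under quantile normalization and 0.009 against sham of all days).

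Over all genes with a value on both shams, those highest on S10L against S33L were Ceacam14 (4.56 on S10L and -1.20 on S33L), Arhgap45 (1.58 on S10L and -2.87 on S33L), Cilp (2.73 on S10L and -1.13 on S33L), Klhl40 (2.74 on S10L and -1.01 on S33L), Adamts8 (5.43 on S10L and 2.01 on S33L) and Retnlg (given above). Highest on S33L were Fgb (-0.33 on S10L and 5.31 on S33L), Ahsg (-1.40 on S10L and 4.09 on S33L), F2 (-4.20 on S10L and 1.07 on S33L), Pon1 (0.68 on S10L and 5.37 on S33L), Apoh (-0.79 on S10L and 3.80 on S33L) and Slx1b (-2.14 on S10L and 1.73 on S33L). Fgb, Ahsg, F2, Pon1 and Apoh encode proteins that liver secretes into plasma. On the obstructed arrays Fgb was at 2.70, 4.93, 4.82 and 4.96 and Ahsg at -0.54, 0.80, 0.90 and 1.14, between the sham values. Of these 12 genes Cilp (3.38 ± 0.83, adjusted p = 0.00419) and Klhl40 (-2.19 ± 0.77, adjusted p = 0.0328) were called at day 9; the adjusted p of Cilp was 0.18 without S33L and that of Klhl40 0.76 without S10L and 0.053 to 0.058 without S09L, S35L or S36L. The difference of Klhl40 was -0.72 (0.28) against sham of all days. Without S10L the genes Adamts8, Ahsg, Apoh, F2 and Retnlg were called, and without S33L Ceacam14 was. Arhgap45 was called without either sham, in opposite directions, at 2.60 (adjusted p = 8.99e-06) without S10L and at -1.85 (adjusted p = 0.000231) without S33L.

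The day 9 difference was set against the mean of the differences at days 1, 2 and 5. Sex read from Xist was uneven over the days. All arrays of day 2 read male, while day 9 had 2 female shams and 3 female and 1 male obstructed arrays. Day and sex therefore overlap in part. With a term for sex 961 genes were called in this contrast, against 903 without it. By limma 539 genes (3.16%) had a higher and 364 (2.14%) a lower difference at day 9, of which 519 and 351 were also called in that direction at day 9 itself. This count moved with single arrays: 50 genes were called without S33L, 239 without S35L, 273 without S34L, 484 without S36L and 1523 without S09L, against 903 with all. Collagen medians were 0.15, 1.09, 1.43 and 2.08 at days 1, 2, 5 and 9, and 15 of the 34 genes were called higher in the contrast, as were 10 of 28 fibroblast genes and 13 of 35 macrophage genes. Mmp2 was at -0.46, 0.30 and 1.43 on the earlier days, and its day 9 difference exceeded their mean by 2.0 ± 0.24 (adjusted p = 0.00404). Trem2 exceeded it by 1.73 ± 0.24 (adjusted p = 0.00453) and Ltbp2 by 1.98 ± 0.28 (adjusted p = 0.00453). Oxidative phosphorylation medians were -0.72, -0.91, -1.23 and -1.41, with 13 of 49 called lower in the contrast, Cox5a by -0.75 ± 0.12 (adjusted p = 0.00845). Gsta1 was near 0 at day 1 and its day 9 difference minus the earlier mean was -1.79 ± 0.25 (adjusted p = 0.00453). By contrast tubular injury genes had medians of 2.12, 1.88, 2.50 and 2.18, with 2 of 24 called, and Lcn2 differed by 5.04, 4.58, 4.53 and 5.55 on the 4 days.

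**Figure D5:**
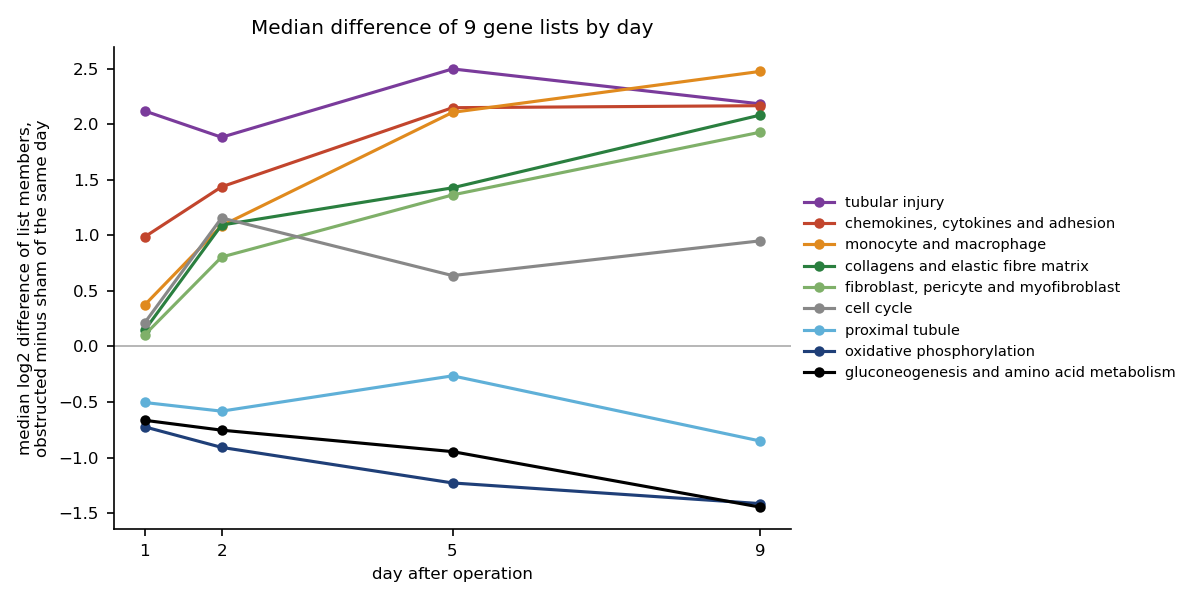
Median log2 difference, obstructed minus sham of the same day (vertical axis), of 9 gene lists at days 1, 2, 5 and 9 (horizontal axis, in days), 1 line per list. The macrophage and collagen lines go from 0.37 and 0.15 at day 1 to 2.48 and 2.08 at day 9, while the tubular injury line starts at 2.12 and ends at 2.18.

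Between day 9 and day 5 limma called 0 genes in either direction, with 1226 at an unadjusted p below 0.05. Leaving out S10L, S09L or S33L gave 6, 8 and 9 genes. Of all genes 8.13% were called higher and 9.42% lower at day 1, 9.05% and 6.44% at day 2, and 14.4% and 11.7% at day 5. These days have fewer obstructed arrays than the 4 of day 9. Shares past a threshold depend on the number of arrays, so they are not on a like footing. Genes called at day 9 numbered 7045, of which 4626 were also called on an earlier day and 2419 were not; whether those 2419 differ between days is tested by the contrasts above and not by this count.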

How the data were processed

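The 22 arrays were deposited as 1 table of log10 ratios of kidney over reference RNA; the unit was inferred from the values, since the labels do not state it, and how the authors corrected background and normalized dyes is not stated here by any label. Each array held exact zeros (5147 to 9271 on the day 9 arrays), which were read as missing. The other values were multiplied by 3.32 to give log2. Probes with a value on at least 18 arrays and in every group were kept, the array median was subtracted, and probes of a gene were averaged (17039 genes, named from GEO's platform annotation). The day 1 sham arrays S03L and S03R were averaged. A limma 3.58.1 fit (R 4.3.3) of the group means used all arrays, with eBayes and Benjamini-Hochberg adjustment at 0.05, and was tested on simulated data. Intensities were not analysed here, so the number of arrays is the limit on precision that could be stated.

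The members, gene lists and tests were chosen with earlier results of these data known. Genes were named by rule: the 12 largest rises and falls, fixed anchors and lowest p of each list, the largest differences from earlier days, and the largest gaps between shams, with clone and predicted names passed over. Of the genes that the rule names, those not printed are in the counts. Cxcl1, Cxcl2, Sdhd and Eif2s3y were outside the rule and chosen after their values were seen. All 284 genes examined were refitted under these alternatives: no median subtraction, quantile normalization, zeros kept, other filters, S03L and S03R apart, array weights, image folder as a block, the day 9 arrays alone, sham of all days, and each day 9 replicate left out. The setting with single probes gave counts of called probes and was not applied to the values of these genes. A term for sex, read from Xist, and leaving out replicates of other days were added after seeing the data, as was the hepatocyte list. All 6 day 9 arrays lie in 1 image folder. The folder as a block therefore left the day 9 differences as they were (-3.43 for Ucp1 and 0.60 for Pecam1) and moved their adjusted p alone. It cannot test for a folder effect within day 9.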

Additional observations from a re-analysis of the deposited data

Results flagged for a closer look

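Among 281 genes and 40 list means with 4 obstructed values, Dixon's test singled out 1 array for 21 genes and 4 lists, about 1 in 20 being usual by chance; S09L was that array in 21 of the 25 cases. S09L was the high array for Akr1c21 (7.08), Ass1 (2.88), Etfb (1.99), Fabp3 (1.62), Gatm (3.87), Gys2 (3.57), Hadh (0.73), Irf1 (0.29), Ndufs3 (0.76), Slc22a29 (4.43) and Eif2s3y (1.60), and for the means of MHC class I and immunoproteasome (0.38), complement (2.67), proximal tubule (4.94) and sex-specific genes (3.84). S09L was the low array for Fgb (2.70), Nes (0.42), Ppbp (2.86), Slx1b (-2.11), Tgfb1 (0.26) and Xist (-5.31). Low on another array were Olr1 on S34L (0.95), Dpys and Fdx1 on S35L (0.34 and 0.23) and Selplg on S36L (0.21).

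The day 9 difference departed from the mean of the earlier days, by the limma contrast, for 539 genes upward and 364 downward. The largest upward departures were the potassium channel genes Kcnd2 (4.13) and Kcnh8 (3.45), Pnma2 (3.51), the macrophage elastase gene Mmp12 (3.27), Cxcl5 (2.87) and Col8a2 (2.80). Downward they were Ly6f (-2.65), Mat1a (-2.50), Lrat (-2.37), Klk1b16 (-2.36), Mia2 (-2.33) and Stra6l (-2.20); Stra6l did not differ at day 9 itself beyond its error (0.09 ± 0.48, adjusted p = 0.906). Mat1a, 1 of the hepatocyte genes high on S33L, was at 0.38 on S10L and 2.47 on S33L, and its day 9 difference of -1.81 ± 0.52, adjusted p = 0.0146 became -0.77 (0.26) without S33L, -2.86 without S10L and -0.45 (0.37) against sham of all days. Lrat, at 3.69 on S10L and 5.28 on S33L, differed by -1.90 ± 0.56, adjusted p = 0.0138, and by -1.11 (0.23) without S33L and -0.41 (0.43) against sham of all days. The day 9 call of both ended with the day 9 arrays alone (0.074 and 0.061), and that of Mia2 (-1.65 ± 0.55, adjusted p = 0.0246) without S10L (0.19) or S33L (0.0505). Against sham of all days the difference of Ly6f went from -2.39 to -0.85 and that of Pnma2 from 4.18 to 2.57.

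Of 7265 tested probes that name no gene or several, 905 were higher and 885 lower in obstructed kidneys, 24.6% together.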

How the results depend on the processing

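No paired analysis was possible because the labels give obstructed and sham arrays no shared replicate numbers. With each probe tested by itself 11335 of 29365 probes were called at day 9, and array weights gave 1603 genes for day 9 against the earlier days. Against sham of all days 9571 of 17039 genes were called, 4711 higher and 4860 lower. Leaving out 1 replicate gave 4401 to 7267 genes at day 9, 50 to 1523 against the earlier days and 0 to 9 against day 5. Quantile normalization moved the median of all genes to -0.106 and the split at day 9 to 2894 higher and 3870 lower; without median subtraction it was 3118 and 4141. The 284 genes had 4819 values under the day 9 leave-outs and the alternatives other than single probes. Of these values 4565 kept direction and side of the threshold, 127 lost and 82 gained the call, and 45 turned sign. The cause was not tested. Under quantile normalization the differences became 0.30 for Adipoq, 0.18 for Atp6v1g3, -0.016 for Cd3e, 0.076 for Kap, 0.17 for Kdr, -0.17 for Mmp13, 0.10 for Pck1, -0.27 for Pdcd1, -0.0905 for Pkm, 0.12 for Pon1, 0.0016 for Slc5a2 and 0.31 for Umod. With array weights they were -0.23 for Eif2s3y and 0.49 for Pon1. With a term for sex they were -0.63 for Eif2s3y, 0.11 for Pon1, -0.077 for Stra6l and 0.37 for Xist. Against sham of all days they were 0.072 for Adipoq, 0.99 for Ahsg, 0.022 for Ckm, -2.19 for Eif2s3y, -0.025 for Hba-a1, 0.87 for Pon1 and 1.05 for Xist. Over the leave-outs, with the array whose omission turned the sign in parentheses, differences ran from -0.54 to 2.88 for Adamts8 (S33L), -0.37 to 0.19 for Adipoq (S33L), -3.51 to 1.98 for Ahsg (S33L), -4.36 to 0.23 for Apoh (S33L), -1.85 to 2.60 for Arhgap45 (S33L), -0.066 to 0.42 for Cd8a (S10L), -5.25 to 0.51 for Ceacam14 (S10L), -0.86 to 2.55 for Eif2s3y (S09L) and -4.75 to 0.52 for F2 (S33L). Further ranges were -0.96 to 4.69 for Fgb (S10L), -0.17 to 0.51 for Foxi1 (S36L), -0.54 to 1.08 for Mmp13 (S33L), -0.025 to 1.04 for Plin1 (S10L), -2.34 to 2.34 for Pon1 (S09L, S33L), -0.96 to 2.92 for Slx1b (S10L), -0.016 to 1.08 for Star (S33L), -0.16 to 0.33 for Stra6l (S09L, S33L) and -2.18 to 0.37 for Xist (S09L). Signal over background was not analysed here.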
